A study of Mus musculus with 16 samples.

Results

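The clustered histone genes described here were the 68 genes, of 23284 gene symbols counted, whose symbol begins with Hist1h, Hist2h, Hist3h or Hist4h. They were taken by symbol alone, and the letters that follow sorted them into 6 genes for the linker histone H1, 18 for H2A, 19 for H2B, 12 for H3 and 13 for H4. By cluster, 54 belonged to Hist1, 10 to Hist2, 3 to Hist3 and 1 to Hist4. RNA had been sequenced from 9 mouse lung tumors labelled Max null (RPMax-/-) and 7 labelled Max wild-type (RPMaxWT), all from 129/SvJ; C57BL/6 animals. MAX is the DNA-binding partner that MYC, MYCL and MYCN require. In both groups recombination was started by an adenovirus that drives Cre from the CMV promoter, given into the trachea, and that promoter is active in many cell types. The labels do not spell out the letters RP, so alleles that both groups share are not named here, and they give no age. Whether each tumor came from a mouse of its own is not stated either, and p-values refer to the spread among these 16 tumors.

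Clustered histone genes supply the histones that package newly copied DNA, and most of them are transcribed in S phase from many near-identical copies. H2A, H2B, H3 and H4 form the nucleosome core, and H1 binds the linker DNA between nucleosomes. Their mRNAs usually end just after a conserved stem-loop, which the stem-loop binding protein SLBP recognises, in place of a poly(A) tail. Some members also give longer polyadenylated transcripts that run past the stem-loop, which are known from cells that have left the cell cycle.

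The stem-loop is printed here because most member reads fell in genes whose annotated transcript runs past it. In the transcripts of GENCODE M21 (mouse build GRCm38), 46 of the 68 members held a match to the stem-loop pattern, in 8 spellings. The capitals mark the 4 bases of the loop between the paired arms.
Hist1h1c, Hist3h2a and 24 other members of classes H1, H2A, H2B and H3: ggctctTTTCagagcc
Hist4h4 and 6 other members of class H4: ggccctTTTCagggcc
Hist1h4i and Hist2h4: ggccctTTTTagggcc

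The annotated transcript ran at least 100 bases past the stem-loop in 23 members, and these held 33299 of the 46192 member reads (72.1%). Another 23 members had their stem-loop within 100 bases of the annotated end and held 673 reads (1.46%), with at most 129 reads in any of them. The remaining 22 members, with no match in any annotated transcript, held 12220 reads (26.5%), of which Hist1h2bc and Hist2h2be gave 6038 and 5437. A poly(A) signal (AATAAA or ATTAAA on the transcript strand) stood in the last 50 bases of an annotated transcript of 12 of the 23 members that ran past the stem-loop and of 2 of the 23 that ended near it. Whether the libraries were made from polyadenylated RNA is not given in the sources used here, and these counts cannot separate the 2 kinds of transcript of one gene.

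**Figure D1:**
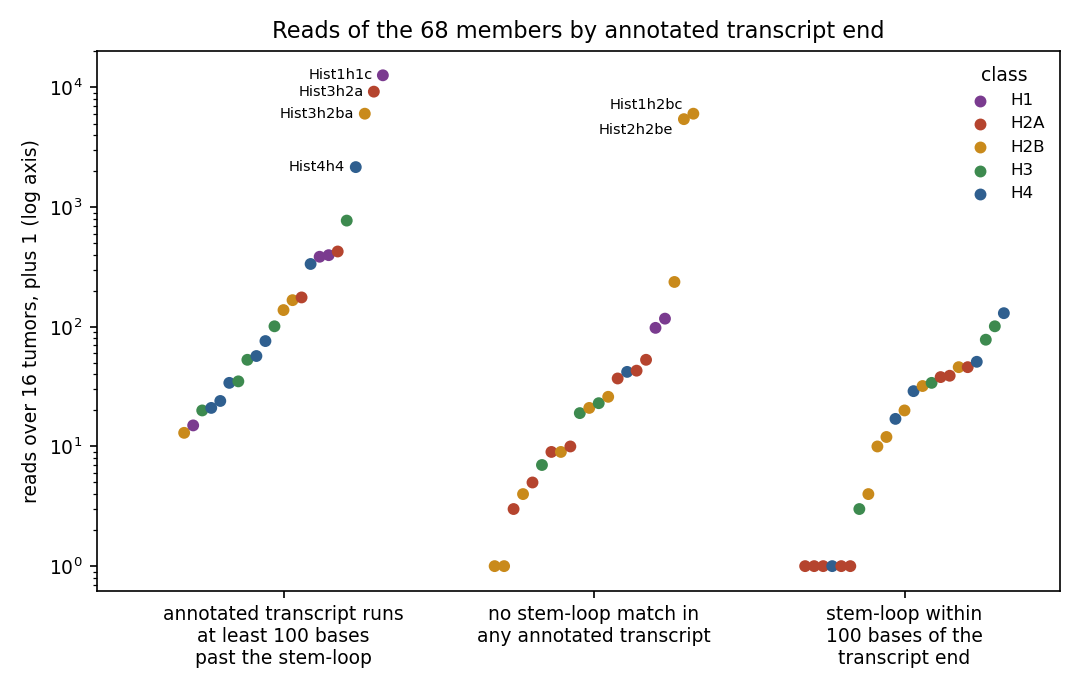
Reads summed over the 16 tumors, plus 1, on a log axis for each of the 68 members, in 3 columns by how the annotated transcript ends and coloured by class. Of the 6 members with at least 1000 reads, 4 stand in the first column (Hist1h1c, Hist3h2a, Hist3h2ba and Hist4h4) and 2 in the middle one, and no member whose stem-loop lies near the transcript end exceeds 129 reads.

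Promoters were read because MYC and MAX dimers are known for binding the E-box CACGTG. RefSeq promoters (GRCm38.p6, 250 bases before to 50 after the start) were found for 61 members, and both strands were searched. None of the 61 held CACGTG, against 7.15% of the 32851 promoters in the table, which says only that these letters are not in this window. CCAAT, the box bound by NF-Y, stood in 52 of the 61 (85.2%, against 37.4% of all promoters): in every promoter of classes H1, H2A, H2B and H3, but in 3 of 12 of class H4. TATAAA stood in 35 of the 61 (57.4%, against 13.6%). The octamer ATTTGCAT, the site of the POU2F1 factor, stood in 14 of the 61 (23.0%, against 1.74%), 7 of class H2A and 7 of class H2B. None of the 4 motifs holds another, and a match is a description of the sequence.

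The promoters of 3 members are printed because results below turn on them: Hist1h2ac was lower in Max null tumors, Hist4h4 was higher, and Hist1h1c held the most reads. Capitals mark the CCAAT box, the TATA box and the octamer on either strand, and the Hist4h4 promoter held none of them.
Hist1h2ac promoter, chr13:23683910-23684209, minus strand, GRCm38.p6: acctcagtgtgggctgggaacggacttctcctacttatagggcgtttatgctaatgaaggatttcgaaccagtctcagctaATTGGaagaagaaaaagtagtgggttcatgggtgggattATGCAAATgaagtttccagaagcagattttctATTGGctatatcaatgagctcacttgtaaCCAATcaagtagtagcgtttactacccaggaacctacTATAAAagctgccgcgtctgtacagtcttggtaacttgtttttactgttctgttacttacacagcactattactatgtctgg
Hist4h4 promoter, chr6:136804382-136804681, minus strand, GRCm38.p6: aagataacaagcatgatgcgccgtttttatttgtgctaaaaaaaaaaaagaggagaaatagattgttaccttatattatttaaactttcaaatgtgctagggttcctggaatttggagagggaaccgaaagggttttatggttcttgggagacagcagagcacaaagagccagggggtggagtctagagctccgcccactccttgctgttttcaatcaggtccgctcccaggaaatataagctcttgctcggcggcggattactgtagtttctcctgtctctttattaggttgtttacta
Hist1h1c promoter, chr13:23738557-23738856, plus strand, GRCm38.p6: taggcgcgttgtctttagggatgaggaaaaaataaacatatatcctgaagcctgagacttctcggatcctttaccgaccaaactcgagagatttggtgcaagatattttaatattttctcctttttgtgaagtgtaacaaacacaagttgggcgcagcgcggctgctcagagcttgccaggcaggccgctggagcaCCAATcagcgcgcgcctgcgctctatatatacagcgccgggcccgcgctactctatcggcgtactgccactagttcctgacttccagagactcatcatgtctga

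The 68 members received few reads. Between 1282 and 3647 reads per tumor fell in them in Max null tumors, against 1736 to 6012 in Max wild-type tumors. As a share of reads in genes this was 0.0183% ± 0.00444 in Max null tumors and 0.0351% ± 0.0165 in Max wild-type tumors (SD, n = 9 and 7). Over all 16 tumors 8 members had no read, 41 had 1 to 99, 13 had 100 or more but under 1000, and 6 had at least 1000, and those 6 held 90.0% of the member reads. The 8 members with no read shared most of their sequence: of the 50-base stretches in their transcripts, a median of 6.71% (0% to 32.9%) occurred in no other annotated gene's transcripts, against a median of 84.7% (68.5% to 100%) for the 6 members with the most reads. HTSeq gives a read that aligns to several places to no gene, so members with near-identical copies are understated. A member with no read in a tumor may hold up to 3 reads' worth of signal, for counting error only.

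**Figure D2:**
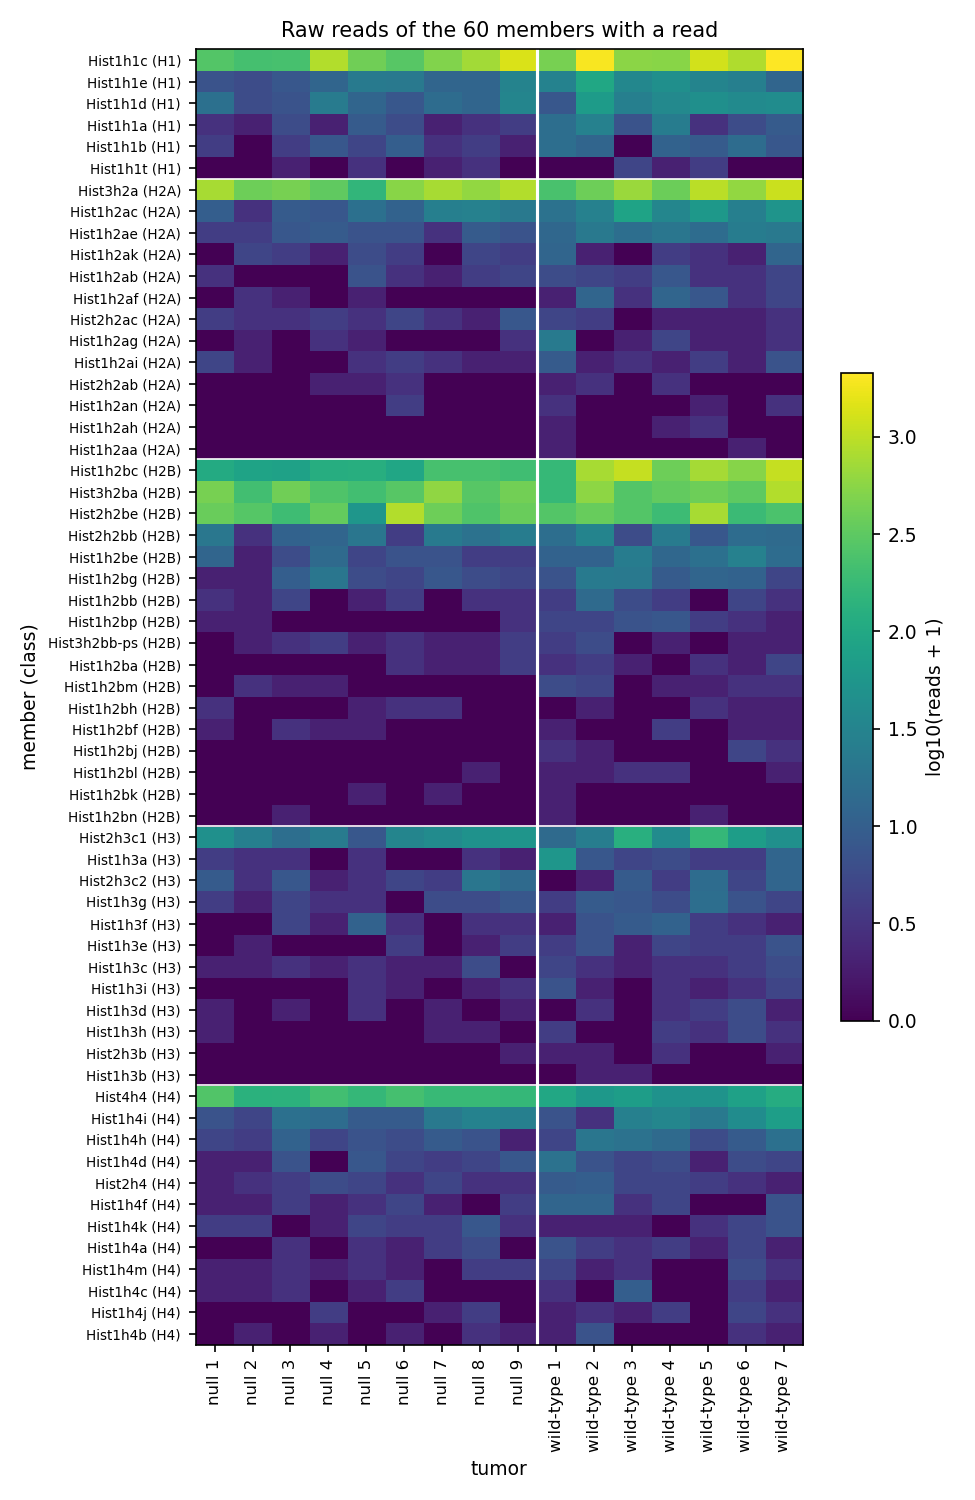
Raw reads per tumor, as log10(reads + 1), for the 60 members with a read (rows, by class and then by total) in 9 Max null tumors on the left and 7 Max wild-type tumors on the right. A few rows carry most reads in every tumor (Hist1h1c, Hist3h2a, Hist1h2bc, Hist3h2ba, Hist2h2be and Hist4h4), and Hist1h2bc is brighter in wild-type tumors 2 to 7 than in any null tumor.

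The libraries of the 2 groups stood apart in ways that bear on every value below. Reads in genes were 8.66 to 15.1 M in Max null tumors and 9.15 to 13.2 M in Max wild-type tumors, so depth overlapped. Multiply aligned reads took 9.17% to 11.8% of all reads in Max null tumors and 12.3% to 22.2% in Max wild-type tumors, with no overlap and with wild-type tumors 2, 4 and 7 highest. Single members and sums are therefore also given without those 3 tumors. Among tested genes with annotated transcripts of at most 1000 bases, 21.4% of 611 were called lower in Max null tumors and 0.818% higher, and their median log2 difference was -0.63, against -0.01 for 14048 genes with longer transcripts. Of the tested members, Hist1h2ae, Hist1h4i, Hist2h2bb and Hist3h2ba (4 in all) had annotated transcripts that short. Lengths here and in the offsets below are those of each gene's longest annotated transcript. That of Hist1h1d was 7425 bases, of which 4884 lay past the stem-loop. An mRNA that ends at the stem-loop would be shorter, so the other tested members are not shown to lie outside this short-transcript pattern. Where the groups do not overlap, the part of the library difference in a result cannot be told apart from genotype.

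Max itself had 74.5 ± 5.98 CPM in Max null tumors and 65.8 ± 7.98 CPM in Max wild-type tumors (counts per M reads in genes, SD, n = 9 and 7), with a log2 difference of 0.18 ± 0.11 (SE) and an adjusted p of 0.281 in edgeR's quasi-likelihood test. A count over the whole gene does not check the deletion of a part of it. Of 9 tested neuroendocrine markers edgeR called none (1 was lower and 3 were higher at an unadjusted p under 0.05), and their median log2 difference was 0.12. Of the marker lists of other cells, 2 of 6 macrophage markers were called lower in Max null tumors and 1 of 6 alveolar type 2 markers higher. Summed macrophage markers were 265 to 871 CPM in Max null tumors and 197 to 683 CPM in Max wild-type tumors, and summed alveolar type 2 markers were 636 to 2818 CPM in Max null tumors and 165 to 1982 CPM in Max wild-type tumors. The part of cell mixture in the results was not tested, and in bulk tumors fewer cells of a type and less RNA per cell cannot be told apart.

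Among the tested clustered histone genes more were called lower than higher in Max null tumors, and the one called higher was Hist4h4. Of the 68 members 14 passed the filter on low counts (about 0.876 CPM in at least 7 tumors), and 8 of them were called lower in Max null tumors and 1 higher at an adjusted p of 0.05 over all 14825 tested genes, where 8.64% of genes were called lower and 7.4% higher. The called members were Hist1h1c, Hist1h1d and Hist1h1e of class H1, Hist1h2ac and Hist1h2ae of H2A, Hist1h2bc and Hist1h2be of H2B, and Hist2h3c1 of H3 on the lower side, and Hist4h4 of class H4 on the higher. By cluster, 7 of the 8 tested Hist1 members and 1 of 3 Hist2 members were called lower. Neither of 2 Hist3 members was called, and the single Hist4 member was called higher. Among the 14, 7 reached the filter level in fewer than 7 null tumors, so they passed only with wild-type tumors counted. They were Hist1h1d, Hist1h1e, Hist1h2ac, Hist1h2ae, Hist1h2be, Hist1h4i and Hist2h2bb. They held 5 of the 8 lower calls, and those calls are not independent of the filter. Hist1h4i and Hist2h2bb each reached the level in 6 null and 5 wild-type tumors and were not called. The other 7, which reached the filter level in at least 7 null tumors, gave 3 lower calls (Hist1h1c, Hist1h2bc and Hist2h3c1) and 1 higher call. Neither count is read as a result about all 68 members. With offsets for transcript length and GC content, 6 of the 14 were called lower and 1 higher, where 5.96% and 4.79% of all genes were, and the calls lost were Hist1h1c (-1.15, adjusted p = 0.0979) and Hist2h3c1 (-1.14, adjusted p = 0.100). With the multiply aligned share of each tumor as a covariate, edgeR called none of the 14. It called 2 genes lower and 8 higher of all 14825, or 0.0135% and 0.054%. At an unadjusted p under 0.05 in that edgeR fit, 6 of the 14 were lower and 1 was higher. The share of all genes at that looser cut was not counted, so the 6 are not read as a result about the members.

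**Figure D3:**
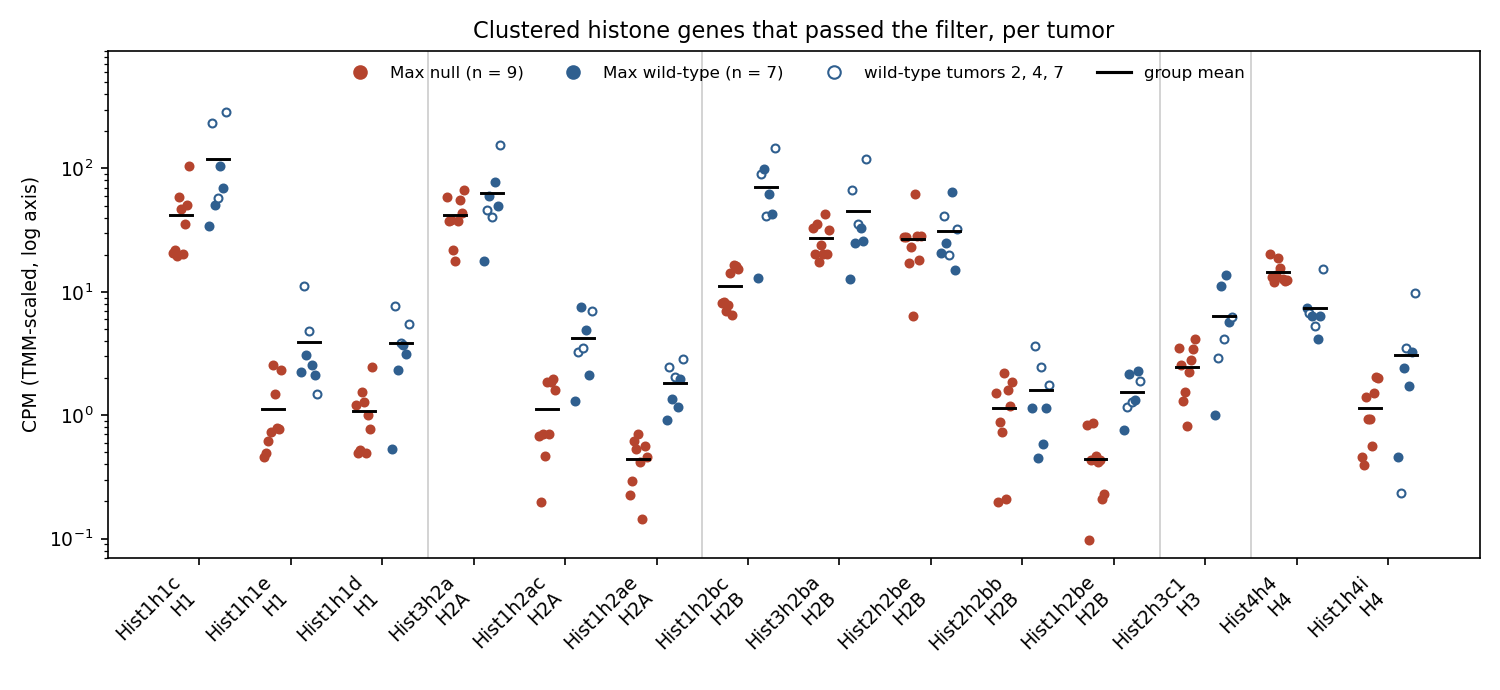
CPM per tumor on a log axis for the 14 members that passed the filter, grouped by class, with 9 Max null tumors left of 7 Max wild-type tumors for each gene, horizontal lines at the group means, and wild-type tumors 2, 4 and 7 as open circles. Hist1h2ae is the gene whose groups do not overlap, and Hist4h4 is the gene whose null tumors sit above 6 of the 7 wild-type tumors.

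All 3 tested linker histone genes were called lower in Max null tumors, but Hist1h1d and Hist1h1e passed the filter only with wild-type tumors counted. Summed over the 6 H1 members, CPM was 21.6, 37.9 and 109.5 (lowest, median and highest) in Max null tumors and 39.2, 76.2 and 295.1 in Max wild-type tumors. The mean was 44.9 ± 28.7 CPM in Max null tumors and 129.4 ± 103 CPM in Max wild-type tumors (SD, n = 9 and 7), a ratio of 0.347 that became 0.631 without wild-type tumors 2, 4 and 7, and Hist1h1c alone held 92.6% of the class's reads. Sums over a class have no test here.

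Hist1h1c, which encodes the linker histone H1.2, had 19.7, 35.8 and 104.5 CPM (lowest, median and highest) in Max null tumors, from 223 to 1359 reads per tumor. In Max wild-type tumors it had 34.2, 69.4 and 286 CPM, from 446 to 2121 reads. The groups overlapped: 4 null tumors lay below every wild-type tumor, 3 wild-type tumors lay above every null tumor, and the highest values were those of wild-type tumors 7 and 2. The log2 difference was -1.50 ± 0.46 (SE; edgeR adjusted p = 0.0353). This call was lost on leaving out null tumor 1, 2, 3, 6, 7 or 8 or wild-type tumor 2 or 7, with differences between -1.12 and -1.80 over all 16 omissions and adjusted p up to 0.103. Leaving out wild-type tumors 2, 4 and 7 together gave -0.62 (adjusted p = 0.465).

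Hist1h1d (H1.3) and Hist1h1e (H1.4) encode further somatic linker histones. Hist1h1d had 0.491, 1.01 and 2.46 CPM in Max null tumors and 0.536, 3.73 and 7.72 CPM in Max wild-type tumors. Hist1h1e had 0.455, 0.771 and 2.56 CPM in Max null tumors and 1.48, 2.57 and 11.2 CPM in Max wild-type tumors. Both genes overlapped between groups, but 5 wild-type tumors exceeded every null tumor for Hist1h1d, and 7 null tumors lay under every wild-type tumor for Hist1h1e. The log2 differences were -1.80 ± 0.45 for Hist1h1d (edgeR adjusted p = 0.0164) and -1.79 ± 0.48 for Hist1h1e (edgeR adjusted p = 0.0216). The Hist1h1e call was lost without wild-type tumor 2, at -1.26 (adjusted p = 0.0614), and 25.7% of its exon bases are shared with Hist1h2be on the same strand in GENCODE M21, so its level is uncertain. Without wild-type tumors 2, 4 and 7 neither gene was called, at -1.15 (adjusted p = 0.225) and -1.14 (adjusted p = 0.195).

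Among tested H2A genes, the Hist1 copies Hist1h2ac and Hist1h2ae were called lower in Max null tumors, while the Hist3 copy showed no call. Both Hist1 copies passed the filter only with wild-type tumors counted. The 18 H2A members summed to 22.4, 40.3 and 69.8 CPM in Max null tumors and 24.3, 54.3 and 168.2 CPM in Max wild-type tumors, a ratio of means of 0.617, or 0.762 without wild-type tumors 2, 4 and 7. Hist3h2a held 91.4% of the class's reads, and without it the ratio was 0.290.

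Hist1h2ac had 0.196, 0.702 and 1.96 CPM in Max null tumors (2 to 28 reads) and 1.30, 3.53 and 7.47 CPM in Max wild-type tumors (17 to 83 reads). Wild-type tumors 2 to 7 all exceeded every null tumor, and wild-type tumor 1 lay among the null tumors. Its log2 difference was -1.91 ± 0.46 (edgeR adjusted p = 0.0134). Hist1h2ae had 0.144, 0.461 and 0.699 CPM in Max null tumors (2 to 8 reads) and 0.919, 1.97 and 2.83 CPM in Max wild-type tumors (12 to 24 reads). It was the one tested member whose groups did not overlap, all null tumors being below all wild-type tumors, as were 0.648% of all tested genes. Its log2 difference was -2.02 ± 0.35 (edgeR adjusted p = 0.00315). Both genes kept their sign without wild-type tumors 2, 4 and 7, at -1.81 (adjusted p = 0.0975) and -1.60 (adjusted p = 0.0527), outside the threshold.

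Hist3h2a had 17.7, 38.4 and 66.4 CPM in Max null tumors and 17.8, 49.5 and 154.1 CPM in Max wild-type tumors. The groups overlapped almost throughout, with wild-type tumor 7 alone far above the rest. The log2 difference was -0.60 ± 0.35 (edgeR adjusted p = 0.250), or -0.29 (adjusted p = 0.717) without wild-type tumors 2, 4 and 7, and 33.0% of its exon bases are shared with Trim17 on the same strand in GENCODE M21.

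H2B genes showed the widest spread of outcomes, from the largest fall among all tested members to almost none. Summed over the 19 members, CPM was 48.4, 62.8 and 90.2 in Max null tumors and 50.5, 153.3 and 304.5 in Max wild-type tumors, a ratio of means of 0.440, or 0.593 without wild-type tumors 2, 4 and 7. Hist1h2bc, an H2B gene of the Hist1 cluster, had 6.46, 8.24 and 16.4 CPM in Max null tumors, from 80 to 229 reads. In Max wild-type tumors it had 13.0, 62.0 and 146.2 CPM, from 170 to 1091 reads. All of wild-type tumors 2 to 7, at 41.3 CPM or more, exceeded every null tumor, and wild-type tumor 1 lay within the null range. The log2 difference was -2.67 ± 0.38 (edgeR adjusted p = 0.00160). It was the only member called lower without wild-type tumors 2, 4 and 7, at -2.28 ± 0.40 (edgeR adjusted p = 0.0177), where 0.871% of tested genes were called lower, and it was called on leaving out each tumor, between -2.85 and -2.39.

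Hist1h2be had 0.0981, 0.433 and 0.866 CPM in Max null tumors (1 to 13 reads) and 0.766, 1.32 and 2.30 CPM in Max wild-type tumors (10 to 28 reads). Only wild-type tumor 1 lay under the highest null tumor. The log2 difference was -1.77 ± 0.39 (edgeR adjusted p = 0.00915), and leaving out wild-type tumors 2, 4 and 7 gave -1.84 (adjusted p = 0.0599).

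The other 3 tested H2B genes were not called. Hist3h2ba had 17.3, 24.0 and 42.4 CPM in Max null tumors and 12.8, 32.7 and 119.6 CPM in Max wild-type tumors. Its log2 difference was -0.74 ± 0.36 (edgeR adjusted p = 0.164) with all tumors and 0.18 without wild-type tumors 2, 4 and 7. Hist2h2be, whose transcript shares no 50-base stretch with another gene, had 6.40, 27.9 and 61.7 CPM in Max null tumors and 14.9, 24.8 and 64.1 CPM in Max wild-type tumors. Its log2 difference was -0.23 ± 0.36 (edgeR adjusted p = 0.699), or -0.23 (adjusted p = 0.828) without wild-type tumors 2, 4 and 7, and the group ranges overlapped almost completely. Hist2h2bb, whose exon bases all overlap a gene on the opposite strand in GENCODE M21 and whose level is uncertain, differed by -0.46 ± 0.51 (edgeR adjusted p = 0.562), and by 0.46 without wild-type tumors 2, 4 and 7.

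Taking one H2B gene against another within each tumor needs no scaling between libraries. The log2 ratio of Hist1h2bc to Hist3h2ba (raw reads plus 0.5) ran from -2.34 to -0.34 in Max null tumors and from 0.03 to 1.99 in Max wild-type tumors. The ranges did not overlap, and the mean was -1.32 ± 0.61 in Max null tumors and 0.66 ± 0.66 in Max wild-type tumors (SD, n = 9 and 7). This pair was 1 of 4 chosen after their values were seen, and their ratios are descriptions from which no p-value is read. The other 3 pairs overlapped between groups. Hist1h2bc to Hist2h2be ran from -3.25 to 1.14 in Max null tumors and from -0.66 to 2.17 in Max wild-type tumors. For the H2A genes Hist1h2ac to Hist3h2a the ranges were -7.27 to -3.21 and -4.51 to -2.98, and the H4 pair is given below.

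Histone H3 genes carried few reads, 28 to 85 per Max null tumor and 60 to 210 per Max wild-type tumor over all 12 members. The summed CPM was 1.86, 3.38 and 6.46 in Max null tumors and 6.82, 8.45 and 17.4 in Max wild-type tumors. It was the class whose summed ranges did not overlap between groups, with a ratio of means of 0.371, or 0.339 without wild-type tumors 2, 4 and 7. The lowest wild-type sum was that of wild-type tumor 1, where Hist1h3a, an untested member, gave 4.21 of the 6.82 CPM. Without that gene this tumor would lie within the null range, so the separation rested on it.

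Hist2h3c1 gave 62.5% of the H3 reads, with 0.815, 2.55 and 4.15 CPM in Max null tumors and 0.995, 5.74 and 13.6 CPM in Max wild-type tumors. In 5 wild-type tumors it exceeded every null tumor, and wild-type tumor 1 lay near the bottom of the null range. The log2 difference was -1.36 ± 0.45 (edgeR adjusted p = 0.0466). It was the weakest call: it was lost on leaving out any of null tumors 1 to 8 or wild-type tumors 3 to 7, with adjusted p up to 0.111 and differences from -1.55 to -1.05, and leaving out wild-type tumors 2, 4 and 7 together gave -1.66 (adjusted p = 0.104). All of its exon bases are shared with another gene on the same strand in GENCODE M21, and none of its 50-base stretches is its own, so its level is uncertain.

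Hist1h3a did not pass the filter, with 0 to 3 reads in Max null tumors (highest 0.233 CPM) and 3 to 55 reads in Max wild-type tumors (0.246 to 4.21 CPM). The highest value, 55 reads, belonged to wild-type tumor 1, the tumor with the lowest sum over all members. With no filter on low counts, its log2 difference was -3.19 (edgeR adjusted p = 0.0146).

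**Figure D4:**
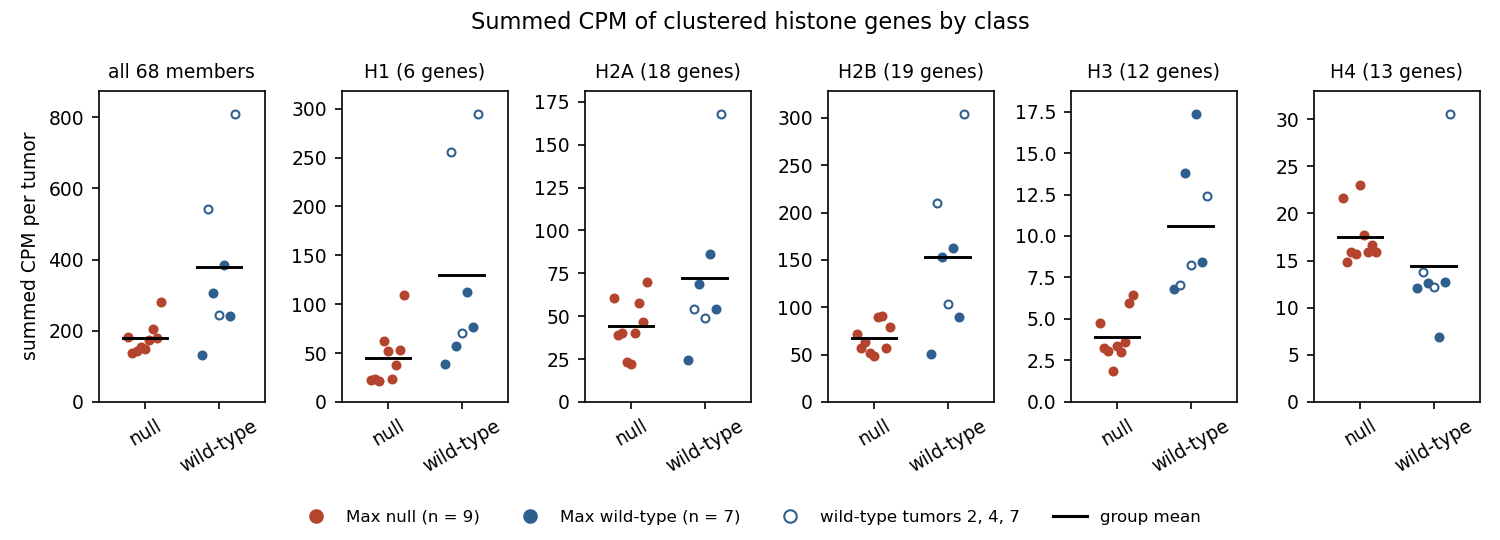
Summed CPM per tumor for all 68 members and for each class, with 9 Max null tumors left of 7 Max wild-type tumors, each axis starting at 0, lines at the group means, and wild-type tumors 2, 4 and 7 as open circles. The H3 sums do not overlap (highest null 6.46, lowest wild-type 6.82, of which Hist1h3a gave 4.21 CPM). H4 is the class with a higher mean in null tumors (17.5 against 14.4 CPM).

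Histone H4 genes split. Hist4h4, the single gene of the Hist4 cluster, had 12.1, 13.2 and 20.3 CPM in Max null tumors, from 134 to 268 reads. In Max wild-type tumors it had 4.14, 6.40 and 15.4 CPM, from 49 to 114 reads. All 9 null tumors lay above 6 of the 7 wild-type tumors, and wild-type tumor 7, at 15.4 CPM, stood among the null tumors. The log2 difference was 0.98 ± 0.26 (edgeR adjusted p = 0.0206). Without wild-type tumors 2, 4 and 7 it was 1.26 ± 0.24 (edgeR adjusted p = 0.0242), where 0.805% of tested genes were called higher, and it was called on leaving out each tumor, between 0.89 and 1.25.

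Hist1h4i, the other tested H4 gene, had 0.393, 0.932 and 2.03 CPM in Max null tumors and 0.234, 2.43 and 9.84 CPM in Max wild-type tumors. The groups overlapped, and the lowest and highest of the 16 tumors were both wild-type. Its log2 difference was -1.41 ± 0.58 (edgeR adjusted p = 0.0983), and it passed the threshold only without wild-type tumor 1, at -1.59 (adjusted p = 0.0489). Leaving out wild-type tumors 2, 4 and 7 gave -0.78 (adjusted p = 0.436). The log2 ratio of Hist4h4 to Hist1h4i was 2.58 to 5.37 in Max null tumors and 0.56 to 4.55 in Max wild-type tumors, again for a pair chosen after its values were seen. Over the 13 H4 members CPM summed to 14.8, 15.9 and 23.1 in Max null tumors and 6.87, 12.6 and 30.6 in Max wild-type tumors. The ratio of means was 1.21 with all tumors, 1.58 without wild-type tumors 2, 4 and 7, and 0.415 without Hist4h4, so the direction of the class rested on that gene.

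**Figure D5:**
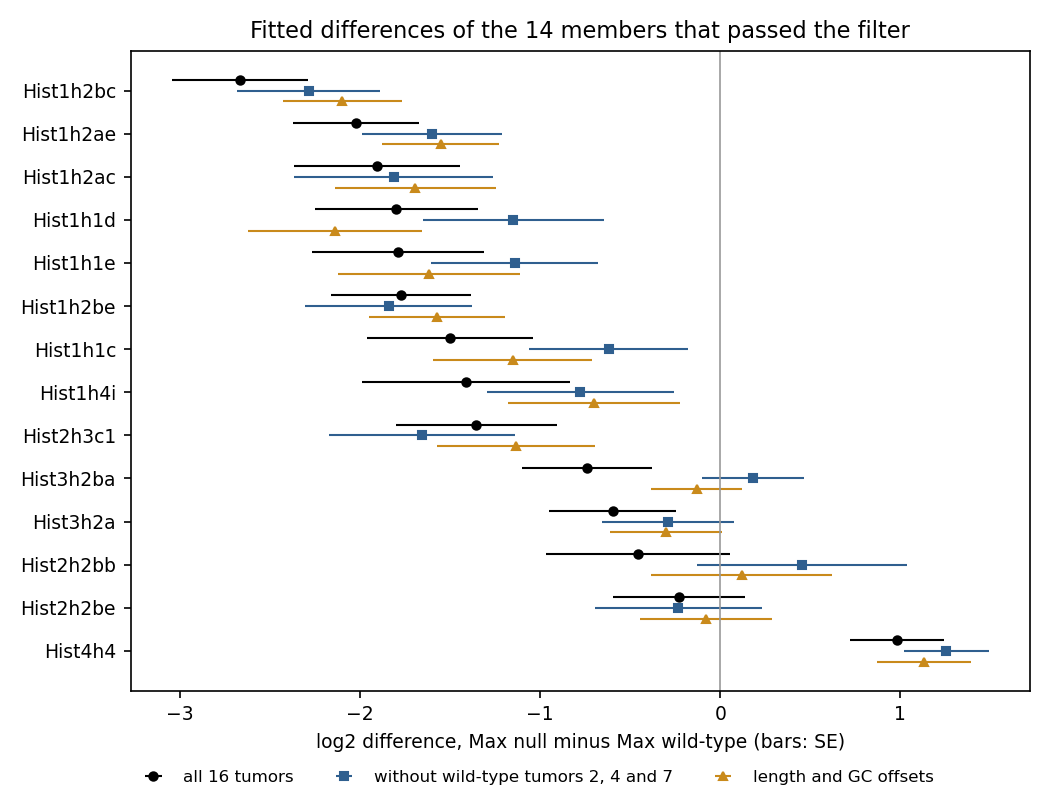
Fitted log2 differences, Max null minus Max wild-type, with SE bars for the 14 members that passed the filter, from all 16 tumors (circles), without wild-type tumors 2, 4 and 7 (squares) and with transcript length and GC offsets (triangles). Hist1h2bc stays below -2 and Hist4h4 above 0.9 in all 3 fits, while Hist3h2ba and Hist2h2bb lie on both sides of 0.

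The 54 members that were not tested held 1757 reads in all. Of the 46 with a read, 43 had a lower mean CPM in Max null tumors than in Max wild-type tumors, and Hist1h2bk, Hist1h4k and Hist2h2ac had a higher one, on 3, 41 and 38 reads (these 3 were named after their values were seen). The share of all untested genes with a lower mean was not counted, so the 43 are not read as a result about histone genes. The untested members had a summed CPM of 3.63, 5.55 and 10.7 in Max null tumors and 9.11, 17.1 and 24.3 in Max wild-type tumors. In wild-type tumor 1 they made up 18.8 of 132.9 CPM, the lowest total of all 68 members in any tumor. Outside the 6 members with the most reads, the 62 others summed to 8.34 to 21.5 CPM in Max null tumors. In Max wild-type tumors they summed to 27.2 to 57.0 CPM, with no overlap. The 6 left out were Hist1h1c and Hist1h2bc, called lower, Hist4h4, called higher, and the uncalled Hist3h2a, Hist3h2ba and Hist2h2be. The 62 hold the 5 lower calls that were not independent of the filter, so their sum is a description and no separate support. With no filter on low counts 60 members were tested, and 13 were called lower and 1 higher, where 5.1% and 4.79% of all 21009 genes were. Those calls included Hist1h1a, an H1 gene, with 28 reads in all Max null tumors and 88 in all Max wild-type tumors, and Hist1h2af, an H2A gene, with 4 and 38 reads for Max null and Max wild-type (both named after their values were seen).

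The wild-type sums were spread more widely than the null sums. Over all 68 members CPM summed to 178.3 ± 43.95 in Max null tumors and 379.9 ± 229.6 in Max wild-type tumors (SD, n = 9 and 7). The 9 null tumors lay between 137.7 and 280.3 CPM. The 7 wild-type tumors lay between 132.9 CPM in tumor 1 and 810.7 CPM in tumor 7, so the lowest and the highest of all 16 tumors were wild-type. Of the 14 tested members 13 had their highest value in a wild-type tumor, 6 of them in tumor 7 and 3 in tumor 2. The ratio of means was 0.469 with all tumors and 0.670 without wild-type tumors 2, 4 and 7. By cluster, the 54 Hist1 members had the lowest ratio, 0.284 (63.2 ± 32.65 CPM in Max null tumors, 223 ± 147 CPM in Max wild-type tumors), the 3 Hist3 members 0.634 and the 10 Hist2 members 0.771, while Hist4h4 had 1.97. Without wild-type tumors 2, 4 and 7 these ratios were 0.439 for Hist1, 0.921 for Hist3, 0.765 for Hist2 and 2.39 for Hist4h4.

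Genes that act on histones were read from 6 lists for comparison. Of their 85 tested genes, 17.65% were called, against 16.04% of all tested genes. By direction, 14.12% were called lower, against 8.64% of all tested genes, and 3.53% higher, against 7.4%. No test was run over a list, so the calls below describe single genes and not the lists. For these lists, fell and rose mean called lower and called higher. Of 8 regulators of histone gene transcription, which include the S phase coactivator Npat, Cdk2 was the one called, a cyclin-dependent kinase gene that acts at the start of S phase. It had 60.2 ± 16.8 CPM in Max null tumors and 94.9 ± 12.3 CPM in Max wild-type tumors (log2 difference -0.66 ± 0.16, edgeR adjusted p = 0.0163). Of 15 genes for the 3' end processing of histone pre-mRNA, which include Slbp, Lsm10 fell and Sympk rose. Lsm10, a protein of the U7 particle that helps to cut histone pre-mRNA, had 13.4 ± 2.63 CPM in Max null tumors and 26.7 ± 13.3 CPM in Max wild-type tumors (edgeR adjusted p = 0.0180). Of 9 genes for histone mRNA decay and translation, Lsm1 and Mif4gd fell and Xrn1 rose. Xrn1, the exonuclease that degrades decapped mRNA, had 44.9 ± 16.8 CPM in Max null tumors and 16.9 ± 10.9 CPM in Max wild-type tumors (log2 difference 1.41 ± 0.36, edgeR adjusted p = 0.0167).

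Among 15 histone chaperone and import genes, Rbbp4, Nasp and Asf1a fell and Ipo4 rose. Rbbp4, a histone-binding subunit of chromatin assembly factor 1, had 374.7 ± 82.3 CPM in Max null tumors and 697.8 ± 351 CPM in Max wild-type tumors (log2 difference -0.90, edgeR adjusted p = 0.0192). The importin gene Ipo4, which brings H3 and H4 into the nucleus, had 115.1 ± 23.9 CPM in Max null tumors and 48.7 ± 20.8 CPM in Max wild-type tumors (log2 difference 1.24 ± 0.22, edgeR adjusted p = 0.00373). The 27 S phase genes had a median log2 difference of -0.25, against -0.03 over all tested genes. Summed S phase genes had 3660.0 ± 953 CPM in Max null tumors and 4255 ± 687 CPM in Max wild-type tumors, with overlapping ranges. Of 11 genes listed as replication-independent histone variants, H3f3a, H2afv, H2afz and H2afx fell, and the median of the list was -0.73. H3f3a, a gene for the H3.3 variant, had 658 ± 159 CPM in Max null tumors and 1467 ± 413 CPM in Max wild-type tumors (log2 difference -1.16 ± 0.20, edgeR adjusted p = 0.00315).

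Cdk2, Lsm10, Xrn1, Rbbp4, Ipo4 and H3f3a were called on leaving out each of the 16 tumors in turn. The H2afv call was lost without null tumor 7 or wild-type tumor 2, 4 or 7 (adjusted p up to 0.0680), and the Nasp call without null tumor 2, 3, 4, 7 or 8 or wild-type tumor 7 (up to 0.0638). The calls of Asf1a, H2afz, Lsm1, Mif4gd, H2afx and Sympk were lost on leaving out any of 9 to 14 single tumors, with adjusted p up to 0.0972. With length and GC offsets Cdk2, Lsm10, Xrn1, Rbbp4, Ipo4 and H3f3a were again called, and H2afv, H2afz, H2afx, Nasp, Asf1a, Lsm1, Mif4gd and Sympk were not (adjusted p from 0.0722 to 0.467). With each tumor's share of multiply aligned reads in the model none of these was called (adjusted p from 0.1497 to 0.965). Without wild-type tumors 2, 4 and 7, Ipo4 (1.15, adjusted p = 0.0419) and H3f3a (-0.81, adjusted p = 0.0424) were the genes called in these lists.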

How the data were processed

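The authors deposited raw counts of reads for each gene symbol in each tumor, with no normalization. Per the submitters' processing notes, bcl2fastq 1.8.4, TopHat2 2.0.12, HTSeq 0.6.1 and the mouse build mm9 were used, with no role or order stated. The sources used here do not name the annotation, the strand setting or the RNA selection. HTSeq's summary lines (29.2% to 32.9% of reads in Max null files, 32.8% to 45.7% in Max wild-type files) stayed out of library sizes and tests.

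Groups came from the labels. Genes were tested in R 4.3.3 by the quasi-likelihood F test of edgeR 4.0.16, with TMM factors and edgeR's filter on low counts, over all genes, at a Benjamini-Hochberg adjusted p of 0.05. The SE of a log2 difference is its size over the square root of F, and CPM uses TMM-scaled library sizes. The script was tested on simulated data. No 2 tumors agreed within sampling noise (smallest chi-square per degree of freedom 34.1). Reads in genes were 8.66 to 15.1 M per tumor, so counting error dominates members with few reads. Alternatives were other scalings, DESeq2 1.42.0, limma-voom (limma 3.58.1), other filters, a block, covariates, offsets and left-out tumors. Because GENCODE M21 uses GRCm38, it served for lengths, sequences and overlaps, and no coordinates were mixed. Genes named were the called members, the 2 members of each class with the highest mean CPM, Max, up to 4 called genes of each list and the first markers of cell lists. The members and lists were chosen with earlier results of these data known. Values of a few listed genes are not reported here.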

Additional observations from a re-analysis of the deposited data

Results flagged for a closer look

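Within each group, 42 sets of values were searched for a tumor far from the rest, and 10 were found. Chance alone would flag about 1 in 20 sets if they were separate. These sets are nested, as Hist1h1c enters the H1 sum and the sum over all members, and all 10 flags were highest values. The 10 are therefore not read against that rate. In Max null tumor 9, Hist1h1c stood at 104.5 CPM, apart from the next null tumor at 59.0 CPM, and with it the H1 sum at 109.5 CPM and the sum over all 68 members at 280.3 CPM. In Max null tumor 6, Hist2h2be stood at 61.7 CPM, against 28.4 CPM in the next null tumor. Wild-type tumor 7 stood apart for Hist1h4i at 9.84 CPM, for Hist4h4 at 15.4 CPM (next wild-type tumor 7.43 CPM), for the H2A sum at 168.2 CPM and for the H4 sum at 30.6 CPM. That tumor also had the highest share of multiply aligned reads, 22.2%, and the part of that share in these values was not tested. Wild-type tumor 2 stood apart for Hist1h1e at 11.2 CPM. Wild-type tumor 1 stood apart for Hist1h3a at 4.21 CPM, against 1.48 CPM in the next wild-type tumor.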

How the results depend on the processing

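With the main settings 2378 of 14825 genes were called, and 8 clustered histone genes were lower and 1 was higher in Max null tumors. Other scalings and limma-voom left the 8 and the 1 as counts. DESeq2 called 3612 genes and 15 of 47 tested members lower (11.3% of all genes it tested). With no filter 13 of 60 were lower (5.1% of all genes), and with at least 5 CPM in at least 7 tumors 2 of 6 were lower (8.74%), with a median log2 difference of -0.68 in place of -1.46. The multiply aligned share as a covariate left 10 genes, 0 members lower, 0 higher and a median of -0.83. Without wild-type tumors 2, 4 and 7, and so with fewer samples, 256 genes and 1 member lower were called. Tumor numbers do not pair the samples (correlations of same-numbered deviations between -0.17 and 0.24), and with them as a replicate block 318 genes, 2 members lower and 0 higher were called (0.654% and 1.49% of all genes); of the list genes, Ipo4 and Xrn1 kept their calls under it. Leaving out each tumor gave 1471 (without wild-type tumor 4) to 3033 genes (without wild-type tumor 1), 5 (without null tumor 1) to 9 members lower, 1 higher in each case, and medians of -1.62 to -1.25.

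Single members changed sign, with the cause not tested, as follows. Without wild-type tumors 2, 4 and 7, Hist2h2bb was 0.46 and Hist3h2ba 0.18. With the covariate, Hist1h4i was 0.040, Hist2h2bb 0.55, Hist3h2a 0.027 and Hist3h2ba 0.46. With length and GC offsets Hist2h2bb was 0.12, and leaving out each tumor gave -0.49 to 0.060 for Hist2h2be, above 0 only without wild-type tumor 5. None of these was called with the main settings. Ratios of summed CPM without wild-type tumors 2, 4 and 7 were 0.670 for all members, 0.631 for H1, 0.762 for H2A, 0.593 for H2B, 0.339 for H3 and 1.58 for H4. Without the member of highest mean they were 0.290 for H2A, 0.681 for H2B and 0.415 for H4, the last below 1. Leaving out each tumor gave 0.424 to 0.579 for all members, 0.285 to 0.441 for H1, 0.555 to 0.792 for H2A, 0.396 to 0.526 for H2B, 0.341 to 0.416 for H3 and 1.12 to 1.49 for H4. The members' own alternatives gave adjusted p from 4.3e-09 to 0.121 for Hist1h2bc and from 0.000925 to 0.120 for Hist4h4. The log2 ratios of 2 members, the lists and the fit without wild-type tumor 1 were tried after seeing the data. Depth limits most the 41 members with 1 to 99 reads in all.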
